A study of Rattus norvegicus with 138 samples.

Results

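The 9 genes described here are 8 interferon-induced genes (Ifit1, Ifit2, Ifit3, Ifi44, Isg15, Mx1, Mx2 and Irf7) and Nlrx1, taken by symbol from the 32883 genes of the tables. They were selected on their measured levels, after earlier results of these data had shown Ifit1 to be nearly absent in Wistar-Kyoto (WKY) rats and present in spontaneously hypertensive rats (SHRs). The strain difference of these genes is therefore a description and carries no test. RNA was sequenced from punches of the nucleus of the solitary tract (NTS), the caudal ventrolateral medulla (CVLM) and the rostral ventrolateral medulla (RVLM) of 46 female rats, the 3 brainstem nuclei being stations of the baroreflex. The rats were WKY/NHsd or SHR/NHsd and were kept singly. The WKY rats numbered 5 aged 8 wk, 4 aged 10 wk and 3 for each of the ages 12, 16 and 24 wk, and the SHRs 5, 5, 6, 6 and 6 in the same order. The punches of both sides of a nucleus were pooled, and each rat gave 1 library per region. SHRs and WKY rats are separate strains that differ across the genome, so that strain and blood pressure cannot be told apart here.

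Libraries held 5904570 to 17889406 counts, and values are given as CPM, the count per 1000000 counts of the library. Library names in the tables end in 1 or 2, and all libraries of 10 wk end in 2, so that this number and the age of 10 wk cannot be told apart. In 2 CVLM libraries (a WKY rat and an SHR, both replicate 5 of 8 wk) the title and the age label conflict, and they were placed at 8 wk by title. All 9 genes passed the filter on low values in each region, among 13793 genes in the NTS, 13408 in CVLM and 13411 in RVLM. Tyrosine hydroxylase (Th), a marker of the catecholamine neurons of these nuclei, had medians of 147 CPM in the NTS, 133 CPM in CVLM and 49.1 CPM in RVLM. Since the punches are bulk tissue, fewer cells of a type and less RNA per cell cannot be told apart in any value below.

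Type I interferons bind a receptor on nearly every cell and signal through JAK kinases, STAT proteins and IRF9 to interferon-stimulated response elements in promoters. The genes that respond include the IFIT proteins, which bind foreign RNA, the Mx GTPases, which trap viral particles, and ISG15, a ubiquitin-like modifier. IRF7 is both a product of this response and a driver of further interferon production. NLRX1, a mitochondrial member of the NOD-like receptor family, is known as a restraint on antiviral signalling through MAVS.

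Of the 9 genes, 5 had a promoter in the RefSeq table of the GRCr8 assembly (Ifit3, Ifi44, Irf7, Mx1 and Nlrx1). The 250 bases before the start were searched on both strands for GAAA, any 2 bases and GAAA again, the repeated core of the interferon-stimulated response element, which reads TTTC, any 2 bases and TTTC on the opposite strand. The motif stood in 3 of the 5, against 1140 of all 33469 promoters (3.41%) and 27 of the 47 promoters of the other interferon-induced genes listed for this work (57.4%). The windows of Mx1 and Nlrx1 held no match to these letters. Below are the 3 windows with a match and that of Ifi44l, a neighbour and relative of Ifi44 whose strain pattern was the opposite of that of Ifit1. They are written 5′ to 3′ on the gene's strand with matches in capitals. Counts were made on another build (rn6), so these coordinates locate the sequences only.
Irf7 (GRCr8, chr1:205800024-205800273, minus strand, 1 match beginning 69 bases before the start): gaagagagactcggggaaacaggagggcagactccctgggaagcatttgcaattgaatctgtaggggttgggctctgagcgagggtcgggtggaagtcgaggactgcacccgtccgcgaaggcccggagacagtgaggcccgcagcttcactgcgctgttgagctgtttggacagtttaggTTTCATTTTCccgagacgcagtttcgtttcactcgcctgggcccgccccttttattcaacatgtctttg
Ifit3 (GRCr8, chr1:241527076-241527325, plus strand, 1 match beginning 44 bases before the start): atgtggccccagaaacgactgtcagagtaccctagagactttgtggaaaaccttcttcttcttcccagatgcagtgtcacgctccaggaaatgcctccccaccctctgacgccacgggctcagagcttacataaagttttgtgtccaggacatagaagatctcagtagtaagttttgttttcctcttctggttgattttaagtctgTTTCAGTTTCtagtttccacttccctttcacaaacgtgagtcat
Ifi44 (GRCr8, chr2:243303841-243304090, minus strand, 1 match beginning 26 bases before the start): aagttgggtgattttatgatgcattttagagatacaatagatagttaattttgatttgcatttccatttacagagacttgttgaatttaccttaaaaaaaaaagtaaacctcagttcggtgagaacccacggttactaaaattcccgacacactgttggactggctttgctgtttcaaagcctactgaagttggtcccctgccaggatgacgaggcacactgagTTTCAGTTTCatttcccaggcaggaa
Ifi44l (GRCr8, chr2:243328473-243328722, plus strand, 2 matches): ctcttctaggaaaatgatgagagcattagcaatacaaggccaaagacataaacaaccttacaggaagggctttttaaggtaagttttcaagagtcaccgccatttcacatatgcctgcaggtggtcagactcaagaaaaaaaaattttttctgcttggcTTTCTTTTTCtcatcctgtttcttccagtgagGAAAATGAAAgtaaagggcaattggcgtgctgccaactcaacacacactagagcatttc

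Ifit1 (ENSRNOG00000019050) codes for a protein that binds RNA lacking the cap modification of the host. In the NTS of WKY rats, no Ifit1 read was found in 12 of 18 libraries and at most 4 reads in the others, which set the level at 0 to 0.225 CPM. In the CVLM 10 of 18 WKY libraries were at 0 and the highest reached 0.233 CPM, and in the RVLM 8 of 18 were at 0 and the highest reached 0.297 CPM. Every SHR library held Ifit1. The lowest, median and highest levels were 5.96, 16.9 and 30.5 CPM in the NTS, 3.02, 12.8 and 27.9 CPM in CVLM and 3.71, 12.9 and 31.3 CPM in RVLM. The lowest SHR thus lay above the highest WKY rat in each region, as it did for 0.363%, 0.433% and 0.365% of all genes tested in NTS, CVLM and RVLM.

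**Figure D1:**
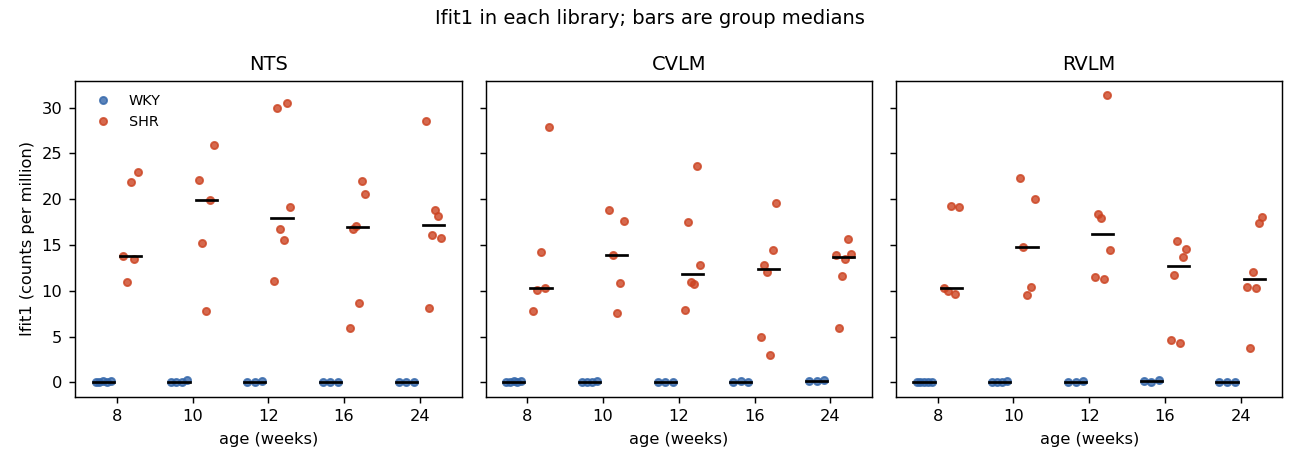
Ifit1 in CPM (vertical axis) in every library of the NTS, CVLM and RVLM by age in weeks (horizontal axis), with WKY rats in blue, SHRs in red and black bars at group medians. WKY rats lie at 0 to 0.297 CPM and SHRs between 3.02 and 31.3 CPM at each of the 5 ages.

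The pattern was the same at 8 wk, the first age sampled, and at 24 wk. In the NTS the 5 SHRs of 8 wk had 13.8, 11.02, 21.9, 13.5 and 22.9 CPM, and the 5 WKY rats 0, 0, 0.152, 0.0851 and 0.186 CPM. At 10 wk the 5 SHRs of that region had 22.1, 15.2, 7.81, 19.96 and 25.9 CPM, and the 4 WKY rats 0, 0.0598, 0 and 0.225 CPM. None of the WKY rats of 16 and 24 wk (3 at each age) gave an Ifit1 read in the NTS, where SHRs had 5.96 to 22.0 CPM at 16 wk and 8.12 to 28.6 CPM at 24 wk. Where a WKY group had no read, a floor of 3 counts was used, and the 95% Poisson lower bound is also given. In the NTS the ratio of SHRs to this floor was 142 at 16 wk (bound 115) and 156 at 24 wk (bound 127). The CVLM of 12 wk had 127 (bound 104), and the RVLM of 24 wk had 112 (bound 91.1). Where WKY reads were found, the lowest ratio was 65.5 (95% interval 28.1 to 202), for RVLM libraries of 16 wk rats. Next came 82 (32 to 301), for CVLM libraries of 24 wk rats. Pooled over the ages, 12, 15 and 13 reads in WKY rats stood against 5090, 3899 and 4365 in SHRs, which makes the ratio of pooled CPM 297 in the NTS (95% Poisson interval of the WKY count 170 to 575), 180 in the CVLM (109 to 322) and 227 in the RVLM (133 to 426). These bounds and intervals cover counting error only.

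A call between strains is an adjusted p of at most 0.01 in edgeR's quasi-likelihood test with a 2-fold difference. For Ifit1 it only repeats the contrast that chose the gene, so its calls are no test. Of the 45 values of the 9 genes by age, 5 were called as higher in SHRs in the NTS, 5 in CVLM and 6 in RVLM, all of them Ifit1 apart from Nlrx1 at 8 wk in RVLM, and none as lower. Over all genes, 0.513%, 0.576% and 0.57% of such values were called as higher and 0.58%, 0.556% and 0.558% as lower. Because the strain contrast chose these genes, nothing is read from their share.

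Reads of Ifit1 and of its paralog Ifit1bl may be split between the pair, since RSEM divides reads that it cannot place, so the level of each is uncertain. Ifit1bl itself had medians of 1.74 CPM in WKY rats and 1.89 CPM in SHRs of the NTS, 1.27 and 1.60 CPM in the CVLM, and 2.30 and 1.79 CPM in the RVLM, and the strains overlapped in each region. With the reads of both genes summed, the ratio of SHRs to WKY rats fell to 9.3 in the NTS (8.46 to 10.3), 9.2 in CVLM (8.26 to 10.3) and 6.89 in RVLM (6.3 to 7.54). The sum was still higher in SHRs at each age, with ratios of 5.85 to 15.7. How reads were divided between the pair was not tested.

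The other IFIT genes did not share the pattern of Ifit1. Ifit2, which binds RNA and is linked to cell death, was at 4.33 to 20.1 CPM in WKY rats (median 11.5) and at 4.07 to 14.3 CPM in SHRs (median 7.81) of the NTS. Its fitted difference over the 5 ages (SHR minus WKY, log2, ± SE) was -0.48 ± 0.154 in the NTS, -0.41 ± 0.129 in CVLM and -0.48 ± 0.131 in RVLM. By age, the difference of Ifit2 in CVLM ran from -0.07 ± 0.31 at 24 wk to -1.05 ± 0.29 at 16 wk. In the NTS it was 0.11 ± 0.37 at 24 wk and below 0 at every other age. Ifit3, a partner of IFIT1 in RNA binding, had medians of 8.21 CPM in WKY rats and 7.51 CPM in SHRs of the NTS, 8.00 and 8.82 CPM in the CVLM, and 9.57 and 10.2 CPM in the RVLM. Its difference was within 1 SE of 0 in every region, and its sign changed among the alternative fits in the NTS and RVLM, and in the CVLM when single rats were left out. Ifit3 spread more among SHRs, with a highest level 13.6 times the lowest in the NTS, where the range in WKY rats was 4.35 to 15.4 CPM.

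Among the antiviral effectors, Isg15 had medians of 15.1 CPM in WKY rats and 11.3 CPM in SHRs of the NTS, with 7.12 to 38.5 CPM in the former and 6.25 to 19.2 CPM in the latter. The fitted difference of Isg15 was -0.56 ± 0.137 in the NTS, -0.36 ± 0.173 in CVLM and -0.43 ± 0.156 in RVLM. These means covered unlike ages. In the NTS the difference of Isg15 ran from -0.04 ± 0.288 at 8 wk to -1.14 ± 0.307 at 12 wk. At 10 wk it was above 0 in CVLM (0.35 ± 0.378) and RVLM (0.20 ± 0.34), where every other age was below 0. Mx2 had medians of 81.6 CPM in WKY rats and 63.1 CPM in SHRs of the NTS, 49.7 and 38.4 CPM in the CVLM, and 62.2 and 43.5 CPM in the RVLM. Its fitted difference was -0.53 ± 0.103, -0.50 ± 0.121 and -0.47 ± 0.112 in the same order. The means of Mx2 also covered unlike ages. From 10 to 12 wk its difference went from 0.06 ± 0.27 to -0.965 ± 0.27 in CVLM and from -0.07 ± 0.25 to -0.81 ± 0.25 in RVLM. In the NTS it ran from -0.25 ± 0.22 at 8 wk to -0.88 ± 0.23 at 12 wk. The ranges of the strains overlapped for both genes in all regions. Irf7 had medians of 18.1 CPM in WKY rats and 17.5 CPM in SHRs of the NTS, 16.1 and 18.4 CPM in the CVLM, and 17.0 and 19.4 CPM in the RVLM, each fitted difference being within 1 SE of 0 and changing sign among the alternative fits in the CVLM and RVLM.

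The fitted strain differences of Mx1 and Ifi44 were unlike between regions, and the interactions that passed are given below. Mx1 was at 1.60 to 7.34 CPM in WKY rats and at 0.780 to 6.48 CPM in SHRs of the NTS. Its fitted difference was -0.97 ± 0.187 in the NTS and -0.80 ± 0.279 in the RVLM, against 0.06 ± 0.126 in the CVLM, where medians were 4.55 CPM in WKY rats and 5.04 CPM in SHRs. In the RVLM Mx1 rested on 3 to 49 reads per WKY library and 1 to 38 per SHR library. Ifi44, a cytoplasmic protein of uncertain role, had medians of 10.7 CPM in WKY rats and 7.50 CPM in SHRs of the NTS and 7.78 and 6.37 CPM in the CVLM, but 9.18 and 12.4 CPM in the RVLM. The differences of Ifi44 were -0.53 ± 0.098, -0.33 ± 0.122 and 0.36 ± 0.099 in that order. In the RVLM this mean covered unlike ages, with 0.92 ± 0.214 at 10 wk and 0.69 ± 0.235 at 24 wk. The remaining ages there had 0.02 (8 wk), 0.11 (12 wk) and 0.03 (16 wk). In the CVLM the difference of Ifi44 was 0.30 ± 0.26 at 10 wk and below 0 at every other age. Reads of Mx1 may be split with Mx2, so its level is uncertain. For Mx1 and Mx2 summed, the ratio of SHRs to WKY rats was 0.709 in the NTS, 0.783 in CVLM and 0.765 in RVLM.

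Nlrx1 was the other gene with a fitted difference above 0 in every region. Its lowest, median and highest levels were 4.82, 9.48 and 13.5 CPM in WKY rats and 6.74, 12.8 and 19.0 CPM in SHRs of the NTS. In the CVLM they were 6.06, 7.65 and 11.6 CPM in WKY rats and 7.11, 11.4 and 15.3 CPM in SHRs, and in the RVLM 2.63, 12.5 and 16.8 CPM in WKY rats and 12.4, 19.0 and 27.96 CPM in SHRs. In the RVLM 21 of 28 SHRs lay above every WKY rat, compared with 13 in the CVLM and 9 in the NTS. The fitted difference was 0.35 ± 0.082 in the NTS, 0.43 ± 0.063 in CVLM and 0.66 ± 0.113 in RVLM. At 8 wk in the RVLM, the 5 SHRs had 21.7, 17.97, 24.4, 19.1 and 25.2 CPM, and the 5 WKY rats 14.2, 12.9, 2.63, 9.24 and 11.6 CPM, which was the one call of Nlrx1 (1.01 ± 0.23). The call lies on the 2-fold limit. It was lost with RLE size factors, with DESeq2, without the filter, with the library name number as a term and without the libraries of number 2 outside 10 wk, and it was kept with the replicate number as a block. Among fits that left out 1 rat of that age, those without SHR replicates 1, 3 or 5 or WKY replicate 4 also lost it. The lowest WKY rat, replicate 3, had 25 reads (2.63 CPM), where the other WKY rats had 9.24 to 14.2 CPM.

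**Figure D2:**
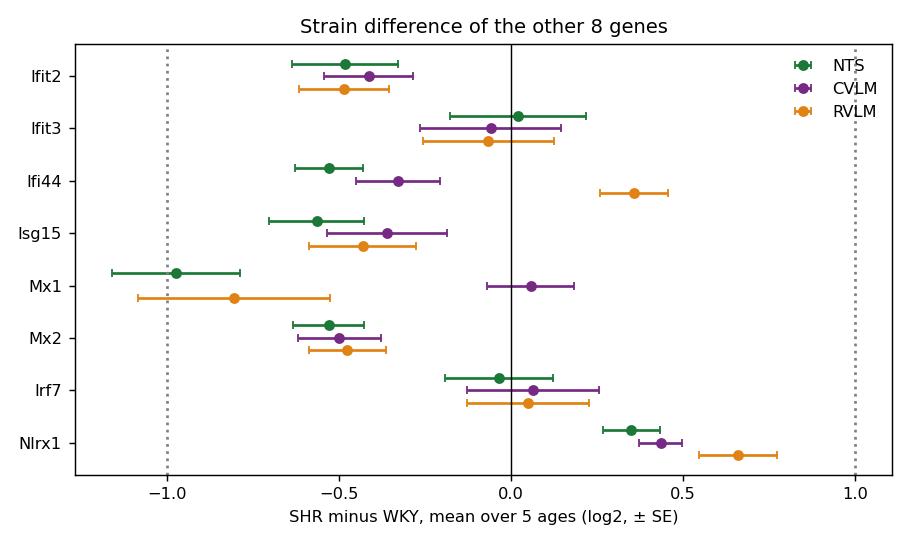
Fitted strain difference, SHR minus WKY as the mean over 5 ages on the log2 scale (horizontal axis), with its standard error for 8 genes (vertical axis) in the NTS (green), CVLM (purple) and RVLM (orange). Dotted lines mark a 2-fold difference; no point lies beyond them, and Ifi44 lies below 0 in the NTS and CVLM and above 0 in the RVLM.

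The genes around these in the pathway were compared through lists drawn up with earlier results of these data known. Of 109 listed genes 100 were in the tables, and 80, 76 and 76 were tested in NTS, CVLM and RVLM. Of the interferons themselves, 5 were in the tables and none passed the filter. Ifnb1 was at 0 in 46 of 46 libraries of the NTS and of the CVLM and in 44 of the RVLM, and Ifng was at 0 in all libraries. For the pathway genes, 7 of 400 values by gene and age were called in the NTS, 2 of 380 in CVLM and 1 of 380 in RVLM, all as lower in SHRs, beside 0.58%, 0.556% and 0.558% of values over all genes. The 7 in the NTS were 2 of Traf6 and 5 of Ifi44l, which passed the filter only through WKY rats. Nothing is therefore read from the NTS share. No value was called for the interferon receptors, the signal transducers, the other interferon regulatory factors or the NOD-like receptors and partners of NLRX1, in any region. Among 43 other interferon-induced effectors tested in the NTS, 32 had a fitted difference below 0, as had 27 of 39 in CVLM and 23 of 40 in RVLM. Their medians were -0.188, -0.0951 and -0.0347 (log2), where the median of all genes was 0.00974, -0.00295 and 0.00878.

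Of the 7 values in the NTS, 5 were those of Ifi44l, which ran opposite to Ifit1. Its lowest, median and highest levels in the NTS were 0.791, 1.56 and 3.69 CPM in WKY rats and 0, 0.108 and 0.610 CPM in SHRs. In the CVLM the median was 1.11 CPM in WKY rats and 0.183 CPM in SHRs, and in the RVLM 1.48 and 0.0893 CPM. All 28 SHRs lay below every WKY rat in the NTS and in the RVLM, as did 26 of 28 in the CVLM, while every SHR lay below every WKY rat for 0.384%, 0.343% and 0.321% of the genes tested in NTS, CVLM and RVLM. Pooled CPM in SHRs was 0.0911 times that in WKY rats in the NTS, 0.149 times in CVLM and 0.103 times in RVLM. Ifi44l passed the filter in the NTS only, and there through WKY rats, since SHR libraries held 0 to 10 of its reads. Its calls at the 5 ages are therefore no support for a difference, and its levels are given as a description.

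**Figure D3:**
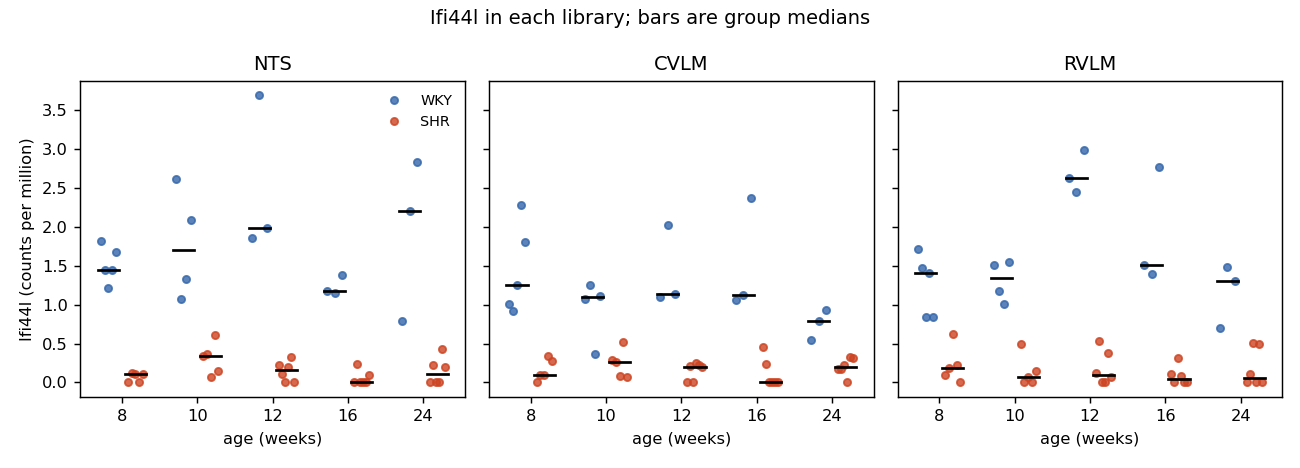
Ifi44l in CPM (vertical axis) in every library of the NTS, CVLM and RVLM by age in weeks (horizontal axis), with WKY rats in blue, SHRs in red and black bars at group medians. SHRs lie at 0 to 0.629 CPM and WKY rats at 0.368 to 3.69 CPM, with overlap in the CVLM only.

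Traf6, a ubiquitin ligase that passes on signals from Toll-like receptors, was called as lower in SHRs at 10 and 24 wk in the NTS, at 10 wk in CVLM and at 12 wk in RVLM. Its log2 difference at these ages was -1.02 ± 0.171, -1.20 ± 0.18, -1.02 ± 0.2 and -1.12 ± 0.211, and over the ages it was -0.82 ± 0.079 in the NTS, -0.72 ± 0.092 in CVLM and -0.79 ± 0.092 in RVLM. Isg20, an exonuclease that degrades viral RNA and was listed with the feedback inhibitors, was called in the CVLM at 16 wk only (-1.65 ± 0.393, edgeR adjusted p = 0.00909). The counts of the CVLM and RVLM rest on these genes and ran from 1 to 3 and from 0 to 2 when single rats were left out.

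Whether the genes differ between nuclei was tested among SHRs, with the rat as a block. Ifit1 was higher in NTS than in CVLM by 0.33 ± 0.085 (log2, adjusted p = 0.000574) and than in the RVLM by 0.21 ± 0.085 (adjusted p = 0.026), and between CVLM and RVLM the difference of -0.12 ± 0.086 did not pass (adjusted p = 0.256). Without the rat block neither passed (adjusted p = 0.0701 and 0.2305), and the second was also lost with limma voom (adjusted p = 0.102). Mx1 had the widest regional range, with an SHR median of 5.04 CPM in the CVLM, 1.89 CPM in the NTS and 1.22 CPM in the RVLM. From CVLM to RVLM it differed by 2.24 ± 0.156 (adjusted p = 1.23e-23). Ifi44 was higher in the RVLM than in the NTS and CVLM, by differences of -0.87 ± 0.076 and -1.02 ± 0.077 (region minus RVLM, adjusted p = 2.62e-18 and 1.34e-21). Nlrx1 was likewise higher in the RVLM, with -0.82 ± 0.071 and -0.84 ± 0.072 on the same scale (adjusted p = 2.17e-18 and 8.45e-19), and its NTS and CVLM levels were 0.03 ± 0.073 apart (adjusted p = 0.748).

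Mx2 was highest in the NTS, by 0.54 ± 0.052 over the CVLM and 0.27 ± 0.052 over the RVLM (adjusted p = 5.2e-16 and 3.58e-06). Ifit2 ran the other way and was lower in the NTS, with differences of -0.69 ± 0.107 from the CVLM and -0.65 ± 0.108 from the RVLM (adjusted p = 4e-08 and 1.29e-07). Irf7 and Ifit3 differed by at most 0.41 in size on the log2 scale between any pair of regions. Altogether 6 of 9 genes differed between NTS and CVLM, 8 between NTS and RVLM and 6 between CVLM and RVLM, where 55.9%, 64.4% and 44.3% of all 14043 genes did. Over 5 alternative fits these counts ran from 3 to 6, 6 to 8 and 4 to 5. The difference of Irf7 between CVLM and RVLM (-0.15 ± 0.064, adjusted p = 0.0488) was lost in all 5 (adjusted p from 0.0605 to 0.545) and in 18 of 28 fits that left out 1 rat. Of 82 pathway genes, 33 were higher and 7 lower in the NTS than in the CVLM, 23 higher and 21 lower in the NTS than in the RVLM, and 5 higher and 35 lower in the CVLM than in the RVLM. The split by direction over all genes is not given here, so nothing is read from these splits.

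The strain difference was compared between regions by the interaction in the same fit. For Ifi44, NTS minus RVLM was -0.01 ± 0.094 in WKY rats and -0.87 ± 0.076 in SHRs, an interaction of -0.85 ± 0.121 (edgeR adjusted p = 2.81e-07). CVLM minus RVLM was -0.36 ± 0.095 in WKY rats and -1.02 ± 0.077 in SHRs, an interaction of -0.66 ± 0.122 (adjusted p = 0.000357). For Mx1, NTS minus CVLM was -0.43 ± 0.173 in WKY rats and -1.48 ± 0.147 in SHRs, an interaction of -1.05 ± 0.227 (adjusted p = 0.00642), and this call was lost in the fit without the rat block (adjusted p = 0.0723). So 1 of 9 genes passed for each pair of regions, where 0.328%, 1.93% and 0.385% of all genes did for NTS and CVLM, NTS and RVLM, and CVLM and RVLM. The interaction of Nlrx1 between NTS and RVLM was -0.28 ± 0.116 (adjusted p = 0.227). That of Mx1 between CVLM and RVLM was 0.87 ± 0.241 and did not pass either (edgeR adjusted p = 0.103). None of the 82 pathway genes passed for any pair.

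**Figure D4:**
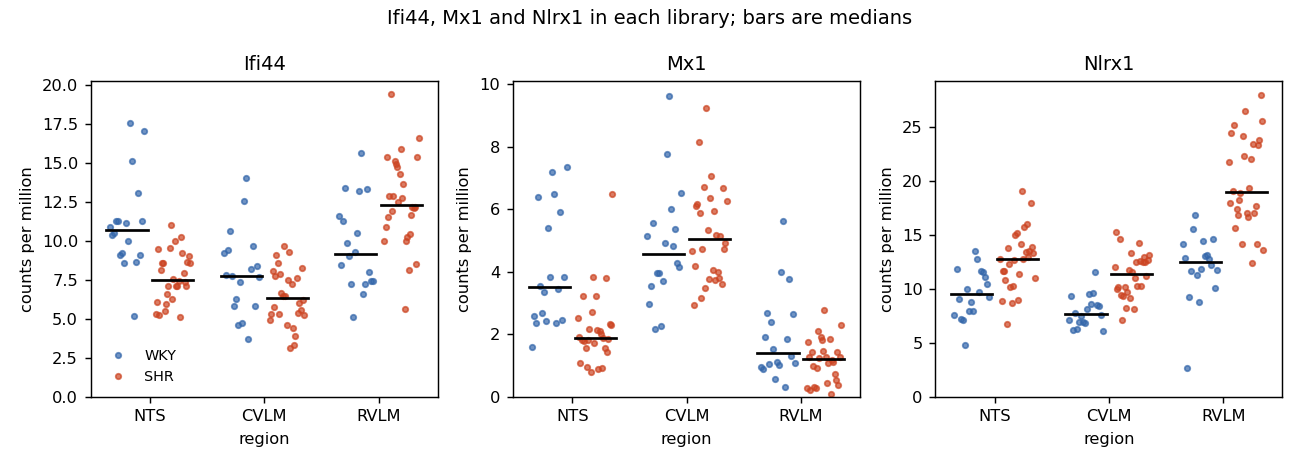
Ifi44, Mx1 and Nlrx1 in CPM (vertical axes, from 0) in every library by region (horizontal axes), with WKY rats in blue, SHRs in red and black bars at medians over all ages. Ifi44 is lower in SHRs in the NTS and CVLM (medians 7.50 and 6.37 CPM) and higher in the RVLM (12.4 CPM), and Nlrx1 is highest in the RVLM of SHRs (19.0 CPM).

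Age was examined as the question of whether these levels moved while hypertension develops in SHRs. Ifit1 did not pass in any region (edgeR adjusted p = 0.799 in the NTS, 0.854 in CVLM and 0.326 in RVLM), and its medians in the NTS ran from 13.8 CPM at 8 wk to 19.96 CPM at 10 wk. None of the 9 genes passed in the NTS, 2 did in CVLM (Ifit2 and Nlrx1) and 2 in RVLM (Ifit2 and Ifi44), beside 18.7%, 20% and 14.1% of all genes. Ifit2 in the CVLM had 22.1, 21.2, 18.1, 18.9 and 21.4 CPM in the 5 SHRs of 10 wk, and 13.4, 10.8, 9.69, 10.2 and 16.7 CPM in those of 8 wk. Its medians at 12, 16 and 24 wk were 13.4, 8.07 and 8.58 CPM, so that 10 wk stood highest. The WKY rats of 10 wk were high as well, at 22.8, 18.8, 19.6 and 23.1 CPM. The age difference of Ifit2 in SHRs had an adjusted p of 0.00182 in the CVLM and 0.0192 in the RVLM.

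Nlrx1 in the CVLM of SHRs was lower at 10 wk than at 8 wk (-0.45 ± 0.126, log2, adjusted p = 0.01), and its age difference had an adjusted p of 0.0289. Ifi44 in the RVLM had an adjusted p of 0.046 over the ages, and this call was lost in 18 of the 28 fits that left out 1 rat from a group of 5 or fewer. With the number at the end of the library name as a term, none of these 4 calls was left (adjusted p from 0.593 to 0.859). In WKY rats, Mx2 and Isg15 differed with age in the CVLM (adjusted p = 0.0391 and 0.0373, beside 22.2% of all genes), and none of the 9 passed in the NTS or RVLM (12.5% and 6.79% of all genes). The strain by age interaction passed for none of the 9 genes in edgeR in any region, with 1 gene in the CVLM (Nlrx1), 1 in the NTS (Isg15) and 1 in the RVLM (Ifi44) at an unadjusted p under 0.05. It passed for 0.0145%, 0.0224% and 0.00746% of all genes in NTS, CVLM and RVLM.

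Among SHRs, the levels of several of these genes rose and fell together from rat to rat, which the strain contrast does not use. After the age means were taken out, Irf7 had a Pearson r with Ifit1 of 0.923 in the NTS, 0.878 in CVLM and 0.891 in RVLM over 28 rats, and Spearman's rho was 0.961, 0.852 and 0.888. Without the 2 rats farthest from the median of Ifit1, r was 0.899, 0.836 and 0.866. Ifit3 had r = 0.817, 0.879 and 0.909, Mx2 r = 0.855, 0.889 and 0.869, and Isg15 r = 0.785, 0.823 and 0.834 in the same order. Each of these 12 relations had a permutation p of at most 3e-05 under permutation within ages (100000 draws, the smallest possible being 1e-05) and an adjusted p of at most 6e-05 over 24 relations. In the 21 SHR libraries whose name ends in 1 and that share an age with another, r lay between 0.802 and 0.937 for these 4 genes, and 5 libraries of the other kind were too few. Both values of a point come from 1 library.

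The fitted slope, in log2 units of the gene per log2 unit of Ifit1, was 0.99 ± 0.093, 1.05 ± 0.126 and 0.95 ± 0.11 for Irf7 in NTS, CVLM and RVLM. It was 1.01 ± 0.146, 0.96 ± 0.112 and 0.98 ± 0.099 for Ifit3, about the same as for Irf7. Mx2 had slopes of 0.49 ± 0.066, 0.59 ± 0.065 and 0.50 ± 0.061, and Isg15 of 0.55 ± 0.096, 0.79 ± 0.113 and 0.73 ± 0.105. These 4 of 8 genes passed in every region over all genes (edgeR adjusted p from 5.33e-07 to 0.00562), where 0.0943%, 0.112% and 0.127% of genes had a passing positive slope. With the replicate number as a block, Isg15 did not pass in any region (adjusted p = 0.103, 0.097 and 0.258), nor did Mx2 in RVLM (0.0563), while Irf7 and Ifit3 passed in all 3. Ifit2, Mx1 and Ifi44 had r from 0.249 to 0.719. By the permutation of r their adjusted p over the 24 relations ran from 0.000203 (Mx1 in RVLM) to 0.0341 (Mx1 in CVLM), apart from Ifit2 in RVLM (0.231), but none of their slopes passed over all genes in any region. Nlrx1 had r = -0.283, -0.142 and -0.282 and slopes of -0.10 ± 0.089, -0.03 ± 0.061 and -0.12 ± 0.087, none of which passed.

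**Figure D5:**
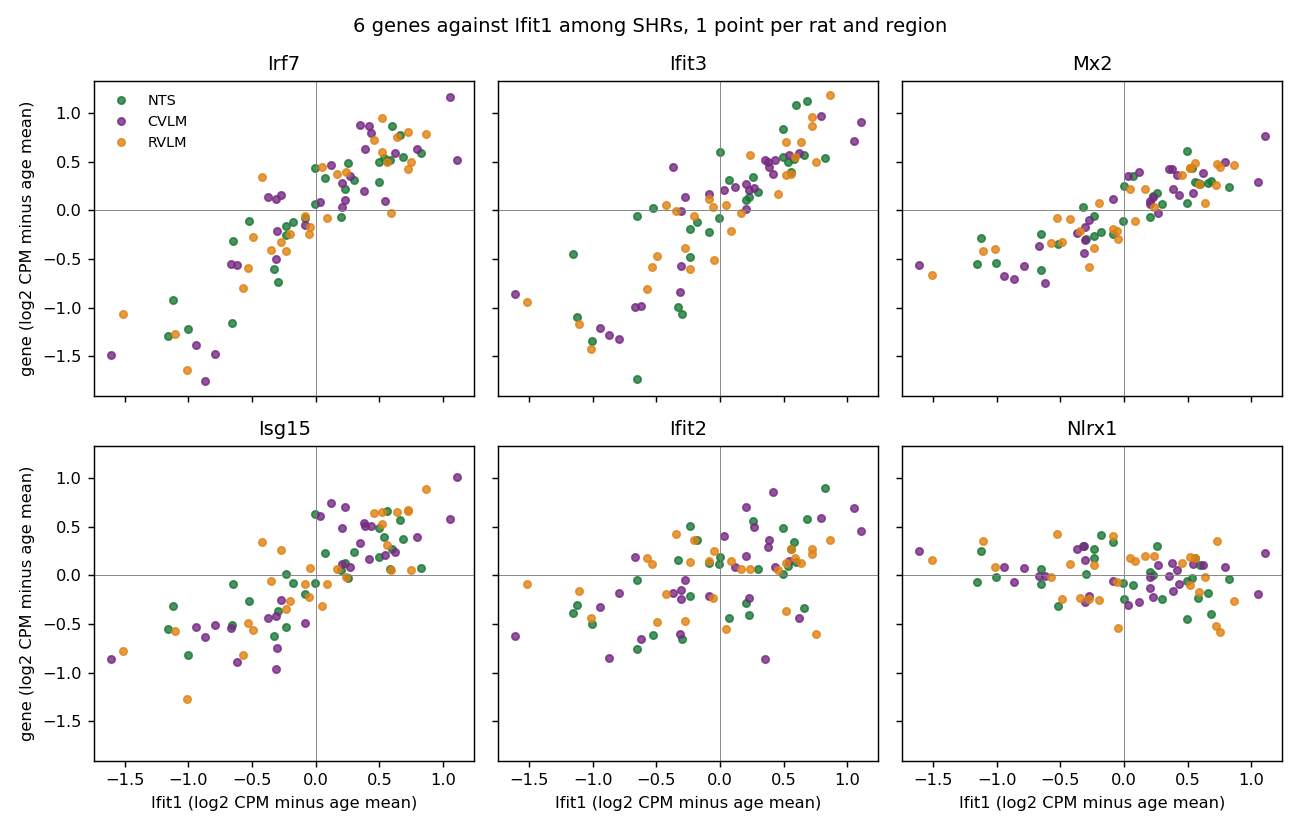
Irf7, Ifit3, Mx2, Isg15, Ifit2 and Nlrx1 (vertical axes) against Ifit1 (horizontal axes) among SHRs, as log2 CPM minus the mean of the rat's age group, with 1 point per rat in the NTS (green), CVLM (purple) and RVLM (orange). The first 4 genes rise with Ifit1 (r from 0.785 to 0.923), and Nlrx1 does not (r from -0.283 to -0.142).

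Over the 13116 genes kept in all regions, the 6 most like Ifit1 by the mean of r over the 3 regions were Irf7 (0.898), Oas1a (0.882), Mx2 (0.871), Usp18 (0.871), Ifit3 (0.868) and RT1-T24-4 (0.857). Oas1a makes the oligoadenylates that activate RNase L, Usp18 removes ISG15 and restrains the interferon receptor, and RT1-T24-4 is a gene of the rat class I MHC, a multigene family in which reads may be split between copies. Isg15 ranked 9th (0.814). Of the pathway genes 4 of 80 in the NTS, 5 of 76 in CVLM and 7 of 76 in RVLM had a passing slope, all positive. They included Oas1a, Usp18 and Rtp4 in every region, and Irf9, a subunit of the factor that binds the response element, in the RVLM (0.43 ± 0.067, adjusted p = 0.00116).

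SHRs that were high in Ifit1 in one nucleus were high in the others. The deviation of Ifit1 from the age mean had r = 0.851 between NTS and CVLM, 0.789 between NTS and RVLM and 0.869 between CVLM and RVLM over 28 SHRs, where the median gene had 0.346, 0.355 and 0.209. Irf7 had 0.908, 0.912 and 0.891 in SHRs and 0.823, 0.774 and 0.812 over 18 WKY rats. Mx2 had 0.806, 0.825 and 0.797 in SHRs and 0.918, 0.86 and 0.857 in WKY rats. For Nlrx1 the values were -0.251, 0.498 and 0.189 in SHRs. In WKY rats, where Ifit1 is nearly absent, Irf7 still ran with Mx2 (r = 0.801, 0.796 and 0.882 in NTS, CVLM and RVLM). Mx2 was the closest of the other genes to Irf7 there. Isg15 had r = 0.73, 0.706 and 0.449 with Irf7 in WKY rats, and Ifit2 -0.022, -0.178 and 0.426. Ifit3 had 0.125, 0.724 and 0.416 with Irf7 in WKY rats, against 0.918, 0.905 and 0.899 in SHRs. The points share the rat, and these values are given without a test.

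Marker genes of other cells were set beside these results. The summed level of 7 microglial genes was 260 to 356 CPM (median 297) in WKY rats and 257 to 423 CPM (median 289) in SHRs of the NTS, and none of the 7 had a passing slope on Ifit1 in any region. The same held for the tested markers of endothelium, astrocytes and leptomeninges, none of which was called between strains. Of the ependymal markers, 1 of 15 values was called in the NTS and none of 5 in the CVLM or RVLM. Over all genes of the NTS, 0.513% of values were called as higher and 0.58% as lower. The median log2 difference (SHR minus WKY) of the 3 ependymal markers tested in NTS was -0.606. Only 1 such marker was tested in CVLM and in RVLM, with -0.293 and -0.276. In the NTS the summed medians of the ependymal markers were 19.5 CPM in WKY rats and 14.6 CPM in SHRs. The part of this difference in the strain differences above was not tested. Of the catecholamine neuron markers none was called. These neuron markers had a median log2 difference (SHR minus WKY) of 0.668 in RVLM, against -0.236 in NTS and 0.0856 in CVLM. Their summed medians in RVLM were 67.5 CPM in WKY rats and 92.0 CPM in SHRs. The part of these neuron markers in the higher Nlrx1 and Ifi44 of SHRs in the RVLM was not tested. Summed lymphocyte markers were at 0 to 2.12 CPM and those of neutrophils and monocytes at 0 to 3.38 CPM over all regions, with Cd3e at 0 in 17, 31 and 24 of 46 libraries of the NTS, CVLM and RVLM. The summed level of 4 red cell genes had medians of 862 and 523 CPM in WKY rats and SHRs of the NTS, 876 and 454 CPM in CVLM and 756 and 455 CPM in RVLM, and 6 of 20 values were called in CVLM and none of 20 in the NTS or RVLM. Over all genes of the CVLM, 0.576% of values were called as higher and 0.556% as lower. The part of the red cell genes in the strain differences above was not tested, and none of the 4 had a passing slope on Ifit1.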

How the data were processed

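Bulk RNA was sequenced from punches of 3 brainstem nuclei. The authors aligned reads to rn6 with STAR 2.6.1 and deposited expected counts per gene from RSEM 1.3.1, 1 table per region. Their methods name ComBat_seq. Whether the deposited counts had passed through it is not given in the sources used here. Counts were rounded to whole numbers here. Genes with a regularised log value (DESeq2 1.42.0) of at least 3.5 in some library were kept. Groups came from the labels of strain, age and region.

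edgeR 4.0.16 (R 4.3.3; TMM, quasi-likelihood) tested strain within age over all genes of a region, and a call needed an adjusted p no higher than 0.01 with a log2 difference of at least 1. Age, strain by age, region with the rat as a block, and the slope on Ifit1 passed at an adjusted p under 0.05 (Benjamini-Hochberg). Log values used a prior count of 2. Correlations used residuals from age means. CPM was count over library total. Figures used matplotlib 3.10.9. Region differences were also fitted with limma 3.58.1.

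The 9 genes and the lists were chosen with earlier results of these data known. The text names all 9, each listed pathway gene with a strain call, and the 6 genes most like Ifit1; Isg15's rank, Irf9, Rtp4 and the interferons were named after their values were seen. Scripts were tested on simulated data of 3000 genes, where 76% of 2-fold changes (log2 of 1) were recovered between strains at 8 wk. That share does not give the sensitivity of a call. Changes of this size lie on the fold limit of a call, and WKY rats were fewer at later ages. No 2 libraries of a group agreed within sampling noise. The labels give separate rats. The p-values of edgeR set a difference against a spread between libraries estimated over all groups of a fit, not for each group alone. The depth of 5904570 to 17889406 counts limits genes near 1 CPM to a few reads.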

Additional observations from a re-analysis of the deposited data

Results flagged for a closer look

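Within groups of 4 to 6 rats, single libraries were checked for a distance from the others beyond Dixon's critical value, which chance passes in about 1 of 20 groups, and 8 of 184 groups passed. In the RVLM, 1 SHR of 12 wk (replicate 5) stood above the other 5 rats in 3 genes, with 31.3 CPM of Ifit1 (others 11.3 to 18.4 CPM), 25.1 CPM of Ifit3 (6.76 to 11.9 CPM) and 24.1 CPM of Isg15 (8.74 to 12.7 CPM). In the CVLM, 1 SHR of 24 wk (replicate 4) had 8.27 CPM of Ifi44 (others 5.26 to 6.24 CPM) and 11.2 CPM of Nlrx1 (12.5 to 13.1 CPM). Among WKY rats of 10 wk, replicate 3 was lowest for Mx1 in the CVLM (2.27 CPM, others 3.71 to 3.96 CPM) and for Irf7 in the RVLM (9.28 CPM, others 14.8 to 15.9 CPM), and replicate 2 was highest for Nlrx1 in the CVLM (7.51 CPM, others 6.87 to 6.92 CPM).

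The strain difference differed between regions, by the interaction in edgeR, for Mx1 between NTS and CVLM (-1.05 on the log2 scale), for Ifi44 between NTS and RVLM (-0.85) and for Ifi44 between CVLM and RVLM (-0.66).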

How the results depend on the processing

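No result changed direction past its threshold under any alternative. At an adjusted p under 0.05 and a 1.5-fold difference, pathway values called rose from 7 to 25 in NTS, from 2 to 11 in CVLM and from 1 to 6 in RVLM, and those of the 9 genes from 5 to 9 in CVLM. The share of all genes called at this looser limit is not given here, so nothing is read from these rises. Without the filter, 4 pathway values were called in CVLM and 4 in RVLM, and 1 of the 9 genes passed with age in each of these regions. Without the 2 libraries of conflicting age, 1 pathway value was called in CVLM. With the library name number as a term, 0 of the 9 genes passed with age in CVLM and 0 in RVLM, and DESeq2 passed 1 in NTS. The cause was not tested.

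Of 54 same-numbered pairs of the 2 strains, 32 deviated together with r over 0.1 (range -0.333 to 0.554). All pairs did so in the NTS at 12 and 24 wk and in CVLM at 10 and 12 wk, but in no region over all ages, and the labels name nothing that a number marks, so the numbers were not taken as pairing the rats. With the replicate number as a block, 1 of the 9 genes passed with age in NTS, 1 pathway value was called in CVLM, and 2 slopes on Ifit1 passed in RVLM in place of 4. Isg15 no longer passed in any region (edgeR adjusted p = 0.103 in NTS, 0.097 in CVLM and 0.258 in RVLM), nor did Mx2 in RVLM (0.0563). Without the block of the rat, region differences between NTS and CVLM passed for 3 genes in place of 6, and the interaction of that pair for 0 in place of 1.

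When 1 rat was left out of a group of 5 or fewer, values of the 9 genes called ran from 5 to 6 in NTS, 5 to 5 in CVLM and 5 to 7 in RVLM, and pathway values from 5 to 10, 1 to 3 and 0 to 2. Genes passing with age ran from 1 to 3 in CVLM and 0 to 2 in RVLM, and the CVLM and RVLM interaction from 1 to 2. Slopes passed for 4, 4 and 4 to 5 genes. Depth limits Ifit1 in WKY rats and Ifi44l in SHRs, each resting on 0 to 10 reads per library.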
